A study of Mus musculus with 4 samples.

Results

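The thrombospondins are a family of 5 secreted glycoproteins encoded by Thbs1, Thbs2, Thbs3, Thbs4 and Comp, and their expression was compared here between testes without and with the luteinizing hormone receptor. All 5 genes were measured among the 19938 genes tested, each by 1 probe set that the platform annotation assigns to that gene alone. The genes were taken by family name, and the family was put forward with its values on these same arrays known. Changes and p-values of the members are therefore a description, and no support is drawn from them. The rule for the probe set was chosen by measured values too, as it takes the highest mean over the arrays, but no member had more than 1 probe set to choose from.

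Thrombospondins are matricellular proteins, which are released into the extracellular matrix and act on cell behaviour more than on the strength of the tissue. Thbs1 and Thbs2 form trimers and carry type 1 repeats, which bind the receptor CD36 and restrain the growth of blood vessels. Thbs3, Thbs4 and Comp form pentamers and lack those repeats. The C-terminal region of the family binds calcium, integrins and, in Thbs1, CD47. In the testis, Leydig cells respond to luteinizing hormone through the receptor Lhcgr and make testosterone. Thbs2 is listed here among markers of progenitor and fetal Leydig and stromal cells.

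The tissue was whole testis of male mice, 2 samples labelled Lhcgr KO and 2 labelled control WT, and the labels give neither age nor strain. Both genotypes had received busulfan at 44 mg/kg, a drug that kills dividing germ cells, and were killed 4 weeks later, so no group without the drug enters the comparison. Each sample was 1 array of an Affymetrix whole-transcript design read in 1 colour. Whether the replicates came from separate animals is not in the labels, and a p-value here reflects only how far these samples vary, which may be technical. Lhcgr itself is not analysed here, and the targeted gene therefore gave no check of the genotype labels. Array medians ran from 198 to 215 intensity units. In whole tissue, fewer cells of a type and less RNA per cell cannot be told apart.

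Wild-type replicate 2 stood apart from the other arrays. The summed intensity of 10 epididymis and rete testis markers was 7580 units there, against 1271 and 1349 on the knockout arrays and 1313 on wild-type replicate 1. The wild-type arrays also differed in the sum of 11 adult Leydig markers, at 25562 units on replicate 1 and 13807 on replicate 2. Results for the thrombospondins are therefore given with and without that array. The source of these marker values, and their part in the results, was not tested.

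Thbs2 was higher in the knockout testes and was the family member that passed the test. Its probe set (10447951) read 8.85 and 8.76 log2 intensity units on the 2 knockout arrays, against 7.49 and 6.97 on the 2 wild-type arrays. On the linear scale these are 461 and 432 units against 180 and 125. The groups did not overlap, and the gap of 1.27 log2 units between the lowest knockout and the highest wild-type array was wider than the spread within either group. The means were 8.80 ± 0.07 (SD, n = 2) and 7.23 ± 0.37, so the log2 fold change was 1.57 with an SE of 0.18 (limma adjusted p = 0.0104). This is 2.98-fold, with a 95% confidence interval of 2.21 to 4.02, and the change ranked 21 among the rises of all genes.

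Of the 5 members, 1 was called higher and 0 were called lower. Of all 19938 genes, 3.10% were called in either direction, 0.963% higher and 2.14% lower. The change of Thbs2 was 1.31 without wild-type replicate 2 (adjusted p = 0.00257, with 3.26% of all genes called), 1.84 without wild-type replicate 1, and 1.53 and 1.62 without a knockout array (adjusted p = 0.159 and 0.144). When an array is left out, its group keeps 1 array that is assumed to vary like the other group, and the spread of a gene comes from that other group and the prior alone. The p-values then follow the group that is left, which for Thbs2 varied less in the knockout than in wild type, and they are no measure of how stable the change is. The same holds for every other p-value from a fit that leaves out an array. In those comparisons 2 genes of all were called higher, and 16 and 21 lower.

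**Figure D1:**
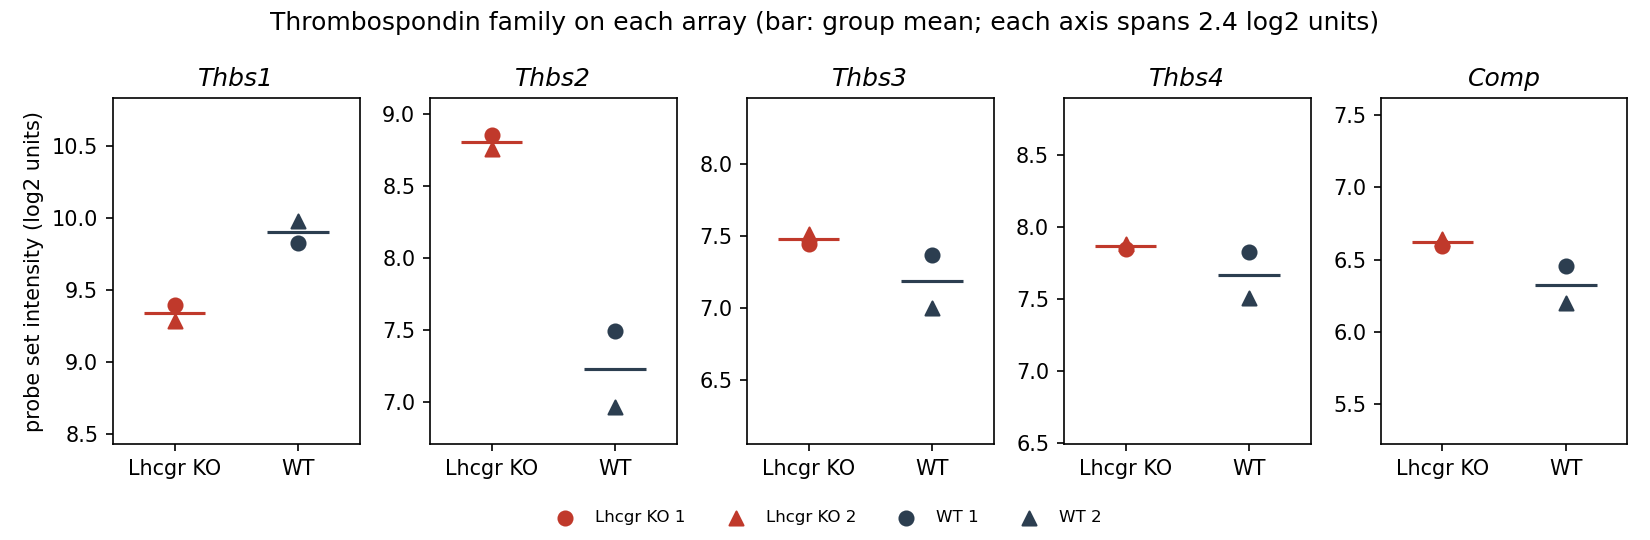
Probe set intensity (log2 units) of each thrombospondin gene on the 2 Lhcgr KO arrays (red) and the 2 WT arrays (dark), with a bar at each group mean. Thbs2 lies between 8.76 and 8.85 in the knockout and at 7.49 or lower in wild type, while Thbs1 lies at 9.39 or lower in the knockout and at 9.83 or higher in wild type. Each panel has its own axis of equal span, so heights compare arrays within a gene and not genes with each other.

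The stretches before the RefSeq start of the 3 members with an entry in the promoter table are printed to set the upstream sequence of Thbs2 beside that of Thbs3 and Thbs4, which did not pass the test. Each runs 5′ to 3′ on the gene's own strand over 250 bases and ends just before the start (build GRCm38.p6). The first is chr17:14694263-14694512, minus strand, the next chr3:89214930-89215179, plus strand, and the last chr13:92794819-92795068, minus strand. Capitals mark matches, on either strand, to the TATA box TATAAA, the CCAAT box CCAAT or the GC box GGGCGG.
Thbs2: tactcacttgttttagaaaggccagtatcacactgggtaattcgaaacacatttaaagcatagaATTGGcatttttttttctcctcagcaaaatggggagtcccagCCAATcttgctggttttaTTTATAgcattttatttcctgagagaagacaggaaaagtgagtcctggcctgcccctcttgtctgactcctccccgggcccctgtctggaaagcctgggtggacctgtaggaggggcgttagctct
Thbs3: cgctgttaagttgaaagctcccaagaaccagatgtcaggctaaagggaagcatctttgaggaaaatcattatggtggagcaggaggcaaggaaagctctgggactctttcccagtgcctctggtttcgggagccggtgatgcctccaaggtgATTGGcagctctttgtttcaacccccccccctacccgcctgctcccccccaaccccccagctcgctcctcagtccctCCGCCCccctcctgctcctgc
Thbs4: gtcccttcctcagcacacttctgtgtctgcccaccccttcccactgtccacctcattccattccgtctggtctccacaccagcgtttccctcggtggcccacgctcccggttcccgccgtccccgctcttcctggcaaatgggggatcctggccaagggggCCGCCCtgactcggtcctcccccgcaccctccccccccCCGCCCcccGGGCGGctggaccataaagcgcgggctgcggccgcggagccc

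The upstream stretches differed in base composition. Thbs2 had 46.8% G and C, Thbs3 58.8% and Thbs4 70.8%, against a median of 52.4% over 32851 promoter entries of the same length. The Thbs2 stretch held TATAAA once, read on the opposite strand from position -126, and CCAAT in 2 places, from positions -186 and -144 counted back from the start. It held no GC box, while Thbs3 had 1 and Thbs4 had 3. TATAAA occurs in 12.4% of all entries, CCAAT in 33.8% and GGGCGG in 32.7%. None of the 3 stretches matched TGACG, the core of the cyclic AMP response element (17.8% of all entries), or AGGTCA, a core bound by NR5A factors (14%). Nor did any match AGAACA, a core of the androgen response element (16.1%), or TGANTCA, the AP-1 site (6.75%). These are matches of letters to a single form of each motif in a short window and not measured binding sites. Other forms were not searched.

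Thbs1 encodes a potent inhibitor of blood vessel growth that also releases TGF-beta from its latent form. Its probe set (10474700) read 9.39 and 9.28 log2 intensity units in the knockout, against 9.83 and 9.98 in wild type. In linear units these are 673 and 623 against 909 and 1011. Both knockout arrays lay below both wild-type arrays, with a gap of 0.43. The log2 fold change was -0.57 ± 0.12 (SE), or 1.48-fold lower with a 95% confidence interval of 1.21 to 1.81. It did not pass the test, with an adjusted p of 0.0651 against the threshold of 0.05.

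The value of Thbs1 lay close to the threshold, and the call depended on the setting. It was past it in 5 of 15 alternatives, for example after centring by array median (-0.63, adjusted p = 0.0458) and with a variance prior that follows the mean (adjusted p = 0.0417). Over all 15 the change stayed negative, between -0.64 and -0.49, and the adjusted p ran from 0.0417 to 0.302. Without wild-type replicate 2 it was -0.49 (adjusted p = 0.185).

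Thbs3, Thbs4 and Comp, the pentameric members, lay slightly higher in the knockout, and none passed the test. Thbs3 (probe set 10493449) read 7.45 and 7.51 log2 units in the knockout, against 7.37 and 7.003 in wild type. Its log2 fold change was 0.29 ± 0.15 (SE, adjusted p = 0.284), with a 95% confidence interval of -0.06 to 0.65. The lower knockout array lay 0.07 above wild-type replicate 1, and wild-type replicate 2 lay well below the other arrays.

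Thbs4, a member known from tendon, muscle and nerve, had values (probe set 10411082) of 7.85 and 7.88 log2 units in the knockout, against 7.83 and 7.51 in wild type. The log2 fold change was 0.20 ± 0.14 (SE, adjusted p = 0.398), with an interval of -0.13 to 0.53. Its lowest knockout array exceeded its highest wild-type array by only 0.02 log2 units, so the groups are separated by less than the spread within wild type. Comp, cartilage oligomeric matrix protein, read 6.60 and 6.64 against 6.45 and 6.20 on its probe set (10572378). Its change was 0.29 ± 0.13 (SE, adjusted p = 0.234), with an interval of -0.01 to 0.60. Its mean lies at the 16.9 percentile of all genes, at 73.4 to 99.8 linear units, and no detection calls were used to tell whether it is above background.

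The differences of Thbs3 and Thbs4 rested largely on wild-type replicate 2, the array with high epididymal markers, and that of Comp did so in part. Within wild type, replicate 2 lay below replicate 1 by 0.37 log2 units for Thbs3, by 0.32 for Thbs4 and by 0.25 for Comp. Between the knockout arrays the same 3 genes differed by at most 0.07. With wild-type replicate 2 left out they showed changes of 0.11 for Thbs3, 0.04 for Thbs4 and 0.17 for Comp (adjusted p from 0.660 to 0.928). Without wild-type replicate 1 they were 0.47, 0.36 and 0.42. The changes also depended on normalization, as quantile normalization of all 4 arrays gave 0.21 for Thbs3, 0.18 for Thbs4 and 0.16 for Comp.

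**Figure D2:**
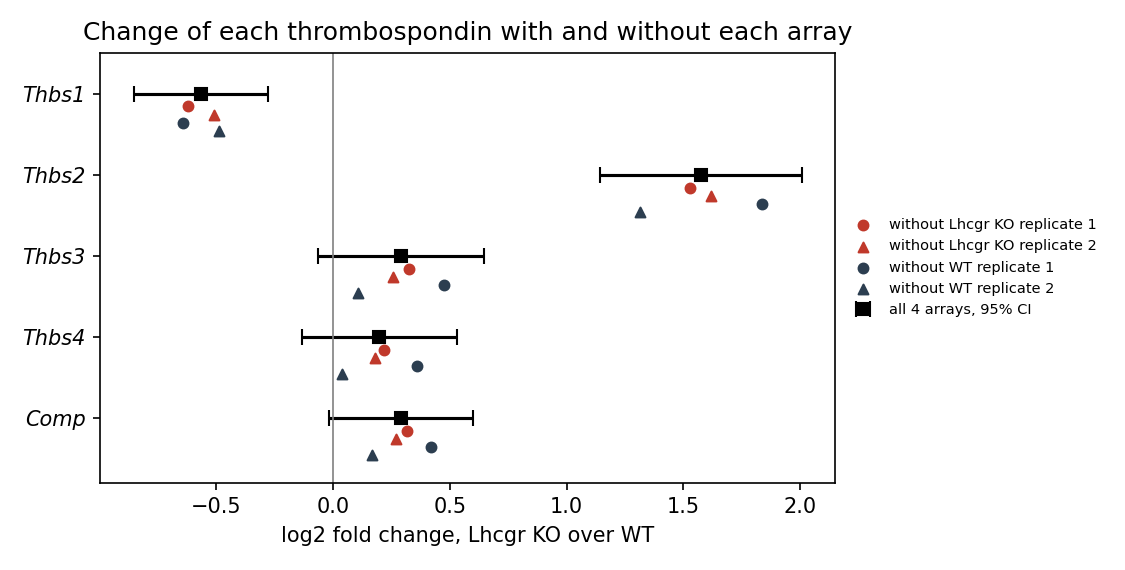
Log2 fold change of each thrombospondin gene, Lhcgr KO over WT, from all 4 arrays (square, with its 95% confidence interval) and with each array left out (small symbols). Thbs2 stays between 1.31 and 1.84 and Thbs1 between -0.64 and -0.49, while the changes of Thbs3, Thbs4 and Comp fall to 0.11, 0.04 and 0.17 without WT replicate 2.

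In 4 of the 5 members both knockout arrays lay above both wild-type arrays, and in the remaining one, Thbs1, both lay below. Over all genes, 36.8% had the former arrangement and 22.4% the latter, so arrays that do not overlap are common in this comparison. The family's median log2 fold change was 0.29, against 0.07 over all genes. Within an array, the log2 ratio of Thbs2 to Thbs1 was -0.55 and -0.53 in the knockout and -2.34 and -3.01 in wild type, a shift of 2.14. The corresponding shifts of Thbs2 against Thbs3, Thbs4 and Comp were 1.28, 1.38 and 1.28. Each of these 4 shifts separated the genotypes, but all share the Thbs2 values and are not separate observations. Each had an exact two-sided permutation p of 0.333, the smallest that 2 against 2 samples allow. A difference between members therefore cannot reach the threshold by this test.

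Receptors and binding partners of the thrombospondins were examined as a list of 38 genes, of which 37 were measured. None was called higher, 3 were called lower and 34 did not pass, against 0.963% higher and 2.14% lower over all genes. The list median was 0.02 against 0.07 for all genes. Cd36, the scavenger receptor that binds the type 1 repeats of Thbs1 and Thbs2, read 6.08 and 5.38 log2 units in the knockout and 9.69 and 8.81 in wild type. All values of one group lay far from those of the other. Because the knockout mean stands at the 3.66 percentile of all genes, only a bound is given, at least 6.67-fold lower, from the 95% confidence interval (limma adjusted p = 0.00555). With a robust variance prior Cd36 was not called (adjusted p = 0.0509).

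Integrin subunits made up the remaining calls among the partners. Itga3, the alpha 3 integrin subunit, read 6.42 and 6.54 against 7.36 and 7.73 and fell by 1.07 on the log2 scale (adjusted p = 0.0194). Its knockout mean stands at the 15.8 percentile of all genes, so the size is uncertain. The change was -0.86 with 32 added before log2 and -1.23 with 16 taken off. Itgam, a subunit of a complement receptor on myeloid cells, fell by 0.62 (adjusted p = 0.0473). It was no longer called without wild-type replicate 2, at -0.53 (adjusted p = 0.133). Without knockout replicate 1 or replicate 2 the adjusted p was 0.0840 and 0.110 for Cd36, 0.181 and 0.171 for Itga3, and 0.196 and 0.260 for Itgam.

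The other receptors known best for thrombospondin binding did not pass the test. Cd47, which binds the C-terminal part of Thbs1 and signals to block phagocytosis, differed by -0.29 ± 0.13 log2 units (adjusted p = 0.245). The integrin subunits Itgav, Itgb3 and Itgb1 had changes of -0.22, 0.28 and -0.18. Lrp1, the endocytic receptor that clears Thbs1 and Thbs2, had one of 0.26, and Calr, calreticulin, its partner at the cell surface, one of -0.20. Cacna2d1, the calcium channel subunit that thrombospondins bind on neurons, had one of 0.14. Their adjusted p-values ran from 0.222 for Lrp1 to 0.597 for Cacna2d1.

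The latent TGF-beta system, on which Thbs1 acts as an activator, had 3 genes called higher and 1 called lower among 22 measured of 24 listed. Over all genes, 0.963% were called higher and 2.14% lower. The list median was -0.02. Tgfb1, the ligand whose latent form Thbs1 activates, read 8.96 and 8.86 log2 units in the knockout against 10.16 and 10.09 in wild type, and fell by 1.22 ± 0.11 (SE, adjusted p = 0.00551). Tgfb3 had a change of -0.95 ± 0.20 without passing the test (adjusted p = 0.0644). The knockout arrays lay below the wild-type arrays for both ligands, an arrangement that 22.4% of all genes had. Tgfb2 of the same list also lay below, with a change of -0.83 ± 0.34 (SE, limma adjusted p = 0.216). It read 8.34 log2 units on wild-type replicate 1 and 9.51 on replicate 2.

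The genes that rose handle the latent complex or the matrix around it. Ltbp4, a latent TGF-beta binding protein, rose by 0.75 (adjusted p = 0.0328). Itgb8, an integrin subunit that activates latent TGF-beta, rose by 0.74 (adjusted p = 0.0243), and Bmp1, a metalloproteinase that processes procollagen, by 0.73 (adjusted p = 0.0479). Without wild-type replicate 2, Ltbp4 (0.76, adjusted p = 0.0508) and Bmp1 (0.68, adjusted p = 0.0953) were no longer called. When a knockout array was left out, the adjusted p of these 4 genes was 0.0840 to 0.198.

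**Figure D3:**
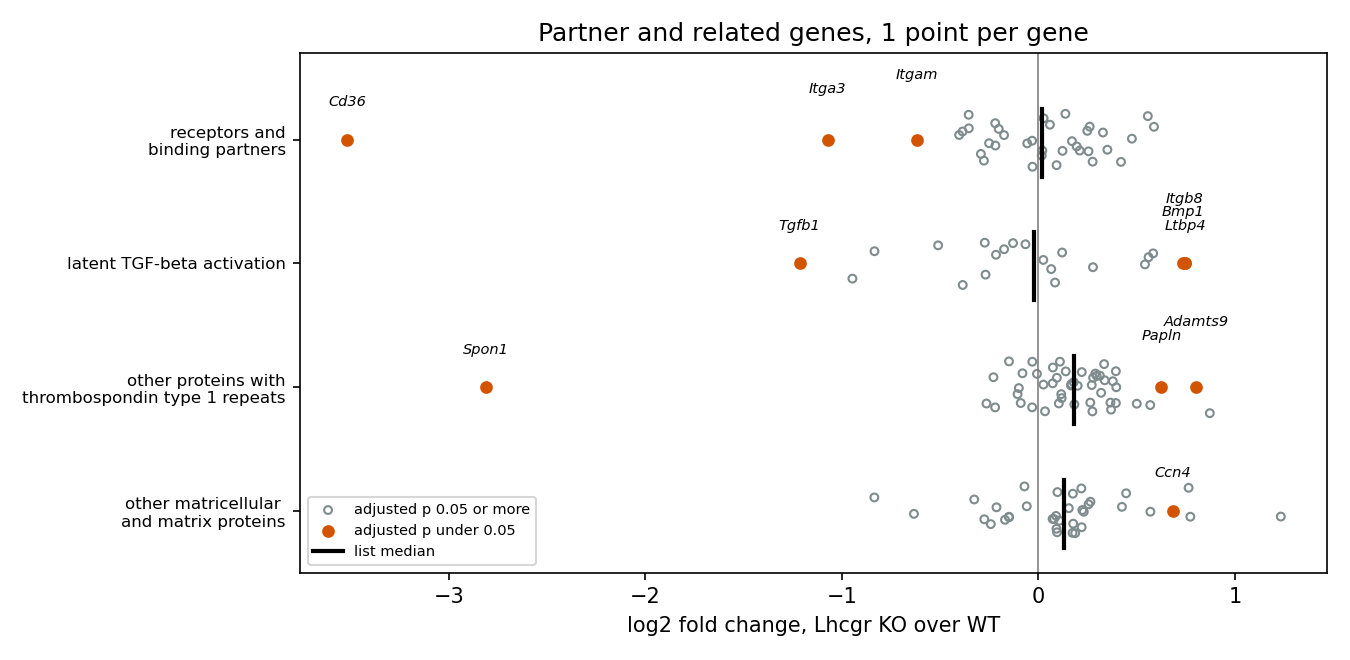
Log2 fold change, Lhcgr KO over WT, of each measured gene in 4 lists related to the thrombospondins, 1 point per gene. Filled points are genes past an adjusted p of 0.05, and a black line marks each list median, which lies between -0.02 and 0.18, while Cd36 and Spon1 lie far to the left.

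Other proteins that carry thrombospondin type 1 repeats include the ADAMTS proteases, the spondins and the R-spondins. Of 49 measured, 2 were called higher, 1 was called lower and 46 did not pass, with a list median of 0.18. Over all genes, 3.10% were called. Spon1, F-spondin, a secreted neural adhesion protein, read 6.20 and 6.41 log2 units in the knockout against 9.36 and 8.88 in wild type. The knockout mean of Spon1 stands at the 11.9 percentile of all genes, so a bound is given here too, at least 5.22-fold lower, from the 95% confidence interval (limma adjusted p = 0.00199). Adamts9, a protease that cleaves proteoglycans, rose by 0.80 (adjusted p = 0.0355), and Papln, papilin, a basement membrane protein, by 0.63 (adjusted p = 0.0383).

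The p-values also moved when an array was left out, but as said above they do not measure how stable a change is. Papln was no longer called without either wild-type array (0.63 and 0.62, adjusted p = 0.0623 and 0.0830), nor was Adamts9 without wild-type replicate 1 (0.64, adjusted p = 0.0530). Without a knockout array Spon1 had adjusted p-values of 0.0803 and 0.0674. Those of Adamts9 were 0.196 and 0.244, and those of Papln 0.194 and 0.192.

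Among other matricellular and matrix proteins, 1 of 36 measured genes was called, against 3.10% of all genes, with a list median of 0.13. This was Ccn4, a secreted CCN family protein also known as a Wnt target, which read 8.61 and 8.56 log2 units against 8.01 and 7.79 and rose by 0.68 (adjusted p = 0.0413). Without wild-type replicate 2 it had a change of 0.57 (adjusted p = 0.108), and without a knockout array adjusted p-values of 0.202 and 0.238. Ccn1, a protein of the same family singled out after its value was seen, showed -0.84 ± 0.18 (adjusted p = 0.0684). The number called in this list rose to 3 of 36 after centring by array median. With 16 units taken off every intensity before log2, the calls of Ccn4, Itgam, Ltbp4, Bmp1, Adamts9 and Papln were lost (adjusted p from 0.0603 for Ltbp4 to 0.0786 for Bmp1).

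Markers of cell types that can express thrombospondins moved with the genotype in part. For progenitor and fetal Leydig and stromal cells, 11 genes other than Thbs2 were measured. Of these 1, Sfrp1, was called higher and 0 lower, against 0.963% and 2.14% of all genes. In 7 of the 11 both knockout arrays lay above both wild-type arrays, in 2 they lay below and in 2 the groups overlapped. Over all genes, 36.8% lay above and 22.4% below. The summed intensity of these 11 genes was 15678 and 14671 units in the knockout against 10959 and 10804 in wild type. That difference lay largely in Dlk1, and the sum of the other genes overlapped between the groups. This latter sum includes Igf1, 1 of the 2 genes that lay below and highest on wild-type replicate 2. Igf1 read 10.69 and 10.45 log2 units in the knockout, 10.86 on wild-type replicate 1 and 11.85 on replicate 2. Dlk1 read 11.76 and 12.02 log2 units in the knockout, 10.82 on wild-type replicate 1 and 6.53 on replicate 2. It did not pass the test (adjusted p = 0.188). The part of these cells in the rise of Thbs2 was not tested.

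Fibroblast, smooth muscle and pericyte markers had 0 genes called among 12, 11 and 8 measured, against 3.10% of all genes. Their list medians were 0.08, 0.05 and 0.16. Among tendon, cartilage and skeletal muscle markers, cells in which Thbs4 and Comp are abundant, 1 of 13 was called, Scx, a tendon transcription factor (1.02, adjusted p = 0.0462). The list median was 0.18, against 0.07 over all genes. The summed intensity was 3422 and 3349 units against 2524 and 2430, and Scx and Fmod, a collagen-binding proteoglycan, had the widest differences (1.02 and 0.77, the latter not called). Of the 13 genes, 7 lay above on both knockout arrays and 1, Acan, lay below (-0.33). Over all genes these shares were 36.8% and 22.4%. Tnmd and Mkx of the same list overlapped between the groups (0.17 and -0.08). Endothelial markers, on whose cells Thbs1 and Thbs2 act, had 1 of 14 called higher, with a list median of -0.02.

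Markers of macrophages, which express both Thbs1 and Cd36, were lower in the knockout on both arrays in all 12 measured genes. Of these, 5 of 12 passed the test. Over all genes, 22.4% lay below in this way and 2.14% were called lower. The summed intensity of the macrophage markers was 5174 and 5362 units against 8991 and 11373. Platelets carry Thbs1 in their granules, and 0 of 7 measured platelet and megakaryocyte genes were called. The platelet chemokine Pf4, which macrophages can also express, had a change of -1.17 ± 0.27 (adjusted p = 0.0808). The summed platelet list overlapped between the groups, at 1177 and 1426 units against 1382 and 1821. Immediate early genes, a class to which Thbs1 is close in its response to serum, had 2 of 15 called lower and 0 higher. Adult Leydig markers, which include genes of steroid synthesis, had 6 of 11 called lower, against 2.14% of all genes. Their summed intensity was 4777 and 3764 units in the knockout, 25562 on wild-type replicate 1 and 13807 on replicate 2. The part of any of these cells in the values of Thbs1 and Cd36 was not tested.

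The genes whose pattern lay nearest to each member were found by the distance between log2 profiles over the 4 arrays, each centred on its own mean. For Thbs2 these were Myh6, a cardiac myosin heavy chain, at a distance of 0.11 log2 units, Sfrp1, a secreted Wnt modulator, at 0.24, and Hepacam, a glial adhesion molecule, at 0.24. Each of the 3 was also lowest on wild-type replicate 2. Myh6 read 8.02 and 7.86 log2 units in the knockout and 6.73 and 6.21 in wild type. For Thbs1 they were Ckb, Rybp and Igsf6, at distances of 0.03 to 0.04, none of which passed the test. For Thbs3 they were Prl2a1, Ccdc158 and Mbd3l1, for Thbs4 Samd10, Khdc3 and Jakmip1, and for Comp Adad1, Fer1l6 and Zfp819, at distances of 0.0051 to 0.0305 and none past the test. With 4 arrays in 2 groups, many genes with a like change lie close together. Genes chosen by this distance share the member's pattern by the choice itself. That they share its lowest array or its lack of a call is therefore no separate result.

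**Figure D4:**
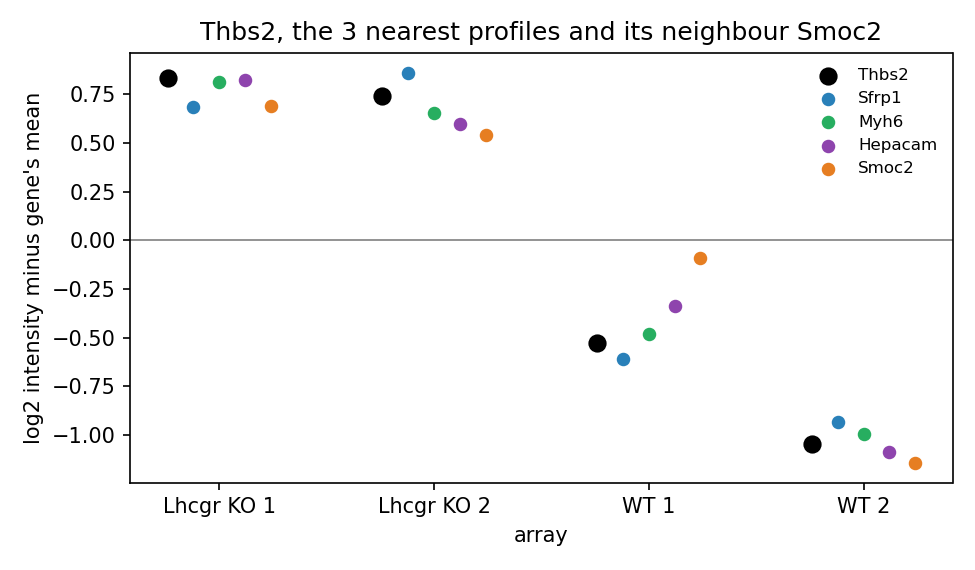
Log2 intensity on each array minus the gene's own mean over the 4 arrays, for Thbs2, the 3 genes with the nearest profile (Sfrp1, Myh6, Hepacam) and Smoc2. All 5 genes lie above their mean on the Lhcgr KO arrays and below it on the WT arrays, and lowest on WT replicate 2. The 3 nearest genes were chosen for their likeness to Thbs2 on these arrays.

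The genes next to each member were read from the RefSeq gene order, taking the nearest measured protein-coding gene on each side. None of these 10 neighbours passed the test. The neighbour with the widest difference was Smoc2, next to Thbs2 and itself a matricellular protein that binds calcium. Smoc2 read 10.54 and 10.39 log2 units in the knockout against 9.76 and 8.71 in wild type, a change of 1.23 ± 0.31 (SE, adjusted p = 0.0986). Both knockout arrays lay above both wild-type arrays. Leaving out wild-type replicate 2 gave 0.71 and leaving out wild-type replicate 1 gave 1.76, so its size depended on which wild-type array was kept. Wdr27, on the other side of Thbs2, had a change of 0.07 ± 0.11 (adjusted p = 0.719). The neighbours of the other members had changes between -0.09 for Mtx1, next to Thbs3, and 0.25 for Mtx3, next to Thbs4.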

How the data were processed

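Per the labels' protocols, testis RNA was prepared with a whole-transcript kit, and biotinylated cDNA was read on Affymetrix arrays. The authors deposited 1 linear intensity per probe set and array. Their build is mm9, per the submitters' processing notes. How probes were summarized and normalized is not given in the sources used. The lowest intensity is just over 16, and an added floor of that kind would shrink folds of weak genes. Of 28856 probe sets, 21789 have 1 gene symbol, 1621 several and 5446 none listed, and only the first were used, with the highest mean per gene. By Entrez number 21698 matched RefSeq genes. Values were taken to log2 and fitted on all 19938 genes and 4 arrays with limma 3.58.1 (R 4.3.3, lmFit and eBayes, no covariates), with Benjamini-Hochberg adjustment over all genes, p-values two-sided and a threshold of 0.05. On simulated arrays of the same 19938 genes, 200 were changed. Of the changes sized 1 (log2) 78% were found again, and of those sized 2 98%, and 11 unchanged genes were called. The simulated noise was independent between genes and equal in both groups, so these rates may not hold for the real arrays.

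The members and lists were chosen with earlier results of these data known. Named are the 5 members, 8 preset receptors, up to 6 called genes of each list and the 3 nearest profiles per member. The neighbouring genes, Tgfb2, Tgfb3, Ccn1, Pf4, Dlk1, Igf1, Scx, Fmod, Acan, Tnmd and Mkx were added after the values were seen. Alternatives were quantile normalization, median centring, leaving out the lowest 25% or 50% of genes, averaging probe sets, a fit over all probe sets singly, a trended or robust eBayes prior, 32 added or 16 taken off before log2, the replicate number as a block, and each array left out. Promoter sequences are RefSeq's on GRCm38.p6.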

Additional observations from a re-analysis of the deposited data

How the results depend on the processing

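The members kept their direction under every alternative that gave a value, 15 for Thbs1 and Thbs2, 14 for Thbs3 and Thbs4 and 13 for Comp. The filter on the lowest 25% of genes removed Comp, and the one on the lowest 50% removed Thbs3 and Thbs4 as well. Thbs2 was called in 13 of 15. With each array left out in turn its log2 fold change ran from 1.31 to 1.84, and it was not called without either knockout array, where the spread came from the wild-type pair and the prior alone. Thbs1 became called after median centring (-0.63), with the lowest 50% of genes left out, with eBayes trend and with a robust prior (-0.57 in each), and with 32 added (-0.54). For none of these settings was the cause tested.

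Over all genes, taking off 16 before log2 gave 103 genes higher and 269 lower, against 192 and 426. With an array left out the counts ran from 2 to 313 higher and from 16 to 726 lower. The partner list, with 3 called, gave 0 with the lowest 50% of genes left out, since that filter removes all 3, 2 with a robust prior (Cd36 lost), with 16 taken off or with the replicate block (Itgam lost in both), and 0 to 6 with an array left out. The latent TGF-beta list, with 4 called, gave 2 with 16 taken off and 0 to 6 with an array left out. The type 1 repeat list, with 3 called, gave 1 and 0 to 3. The matricellular list, with 1 called, gave 3 after centring and with a robust prior, 0 with 16 taken off and 0 to 3 with an array left out.

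Same-numbered arrays did not deviate together (correlation over genes of 0.02). With 2 arrays per group this cannot exclude that same-numbered samples share a litter, day or batch, and the labels do not say. With the replicate block, 173 genes were higher and 398 lower, and the matricellular list had 2 called, Ccn4 not among them. The block ended the calls of Ccn4 (adjusted p = 0.0516), Papln (0.0613) and Itgam (0.0702). Thbs2 stayed called and the other members uncalled. With 4 arrays, precision is limited throughout.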
